A study of Mus musculus with 4 samples.

Results

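The genes described here are 10 acute phase and iron handling genes, chosen by name from the 54532 genes of a table of RNA sequencing values. The 5 acute phase genes are Saa3, Lcn2, Lrg1, Hp and Cp, and the 5 genes of iron storage and transport are Fth1, Ftl1, Slc40a1, Tfrc and Slc11a1. The cells were mouse cells labelled MSCs, obtained by digesting whole bone marrow of CB6F1 mice, an F1 hybrid laboratory strain, and grown in high-glucose medium with serum. The 2 R libraries came from cells given R in culture at 0.5 µM (the unit is written "um" in the labels, which do not say what R is), and the 2 vehicle libraries from cells that received the solvent DMSO. All 4 sample titles carry the term aGVHD, so both groups share whatever it stands for. Whether a replicate is its own animal or culture is not stated, so each p-value reflects the spread between these libraries alone, which may be technical. MSC commonly stands for mesenchymal stem or stromal cell, and digested marrow also holds blood-forming cells such as macrophages.

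Acute phase proteins are secreted in inflammation, mostly by the liver but also by macrophages and stromal cells, and their genes respond to interleukin 6 type cytokines through STAT3, to interleukin 1 through NF-kB, and to C/EBP factors. Several of them withhold iron from microbes or clear free haemoglobin. Cells store iron in ferritin, take it up bound to transferrin and release it through ferroportin. Iron regulatory proteins bind hairpins called iron-responsive elements, which blocks translation of ferritin and ferroportin mRNA when iron is low and protects the transferrin receptor mRNA from decay. Macrophages of the bone marrow recycle the iron of red cells.

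Levels are FPKM, sequenced fragments scaled by gene length and library size, which can be compared between genes as far as the lengths used are right. The libraries held 16608626 to 18196002 reads recovered from these values. Macrophage transcripts were abundant in all 4 libraries and their sum was lower in R. The 27 markers of macrophages and monocytes summed to 17052 and 13071 FPKM in R libraries and to 25063 and 22393 FPKM in vehicle libraries. Much of these sums came from 1 gene, Lyz2, which did not pass the test described below. Lyz2 was at 8891 and 7061 FPKM in R libraries and at 14569 and 12540 FPKM in vehicle libraries. Of the 25 tested macrophage markers, 24 had log2 fold changes below 0 and 6 fell in that test (adjusted p under 0.05). Of all 12176 tested genes 6087 were below 0 and 1.37% fell. The 27 mesenchymal stromal markers summed to 2307 and 2379 FPKM in R libraries and to 1936 and 1911 FPKM in vehicle libraries. Much of these sums came from Col1a1 and Col1a2, and neither passed the test. Col1a1 was at 852 and 795 FPKM in R libraries and at 532 and 526 FPKM in vehicle libraries. Col1a2 was at 414 and 434 FPKM in R libraries and at 282 and 291 FPKM in vehicle libraries. Cxcl12, also high, overlapped between the groups. These genes were singled out after their values were seen. Of the 24 tested stromal markers, 17 were above 0, 0 rose and 3 fell in the test, where 6089 of all tested genes were above 0. The label MSCs thus stands beside stromal transcripts in every library, with macrophage marker sums above the stromal ones. Neutrophil markers summed to 21.9 to 25.5 FPKM, with Ly6g, S100a9, Mpo and Elane at 0, erythroid markers to 1.88 to 3.27 FPKM, with both Hbb genes and Hba-a2 at 0, and hepatocyte markers to at most 0.142 FPKM. T and NK cell, B cell and endothelial markers each summed to 5.82 to 15.9 FPKM.

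**Figure D1:**
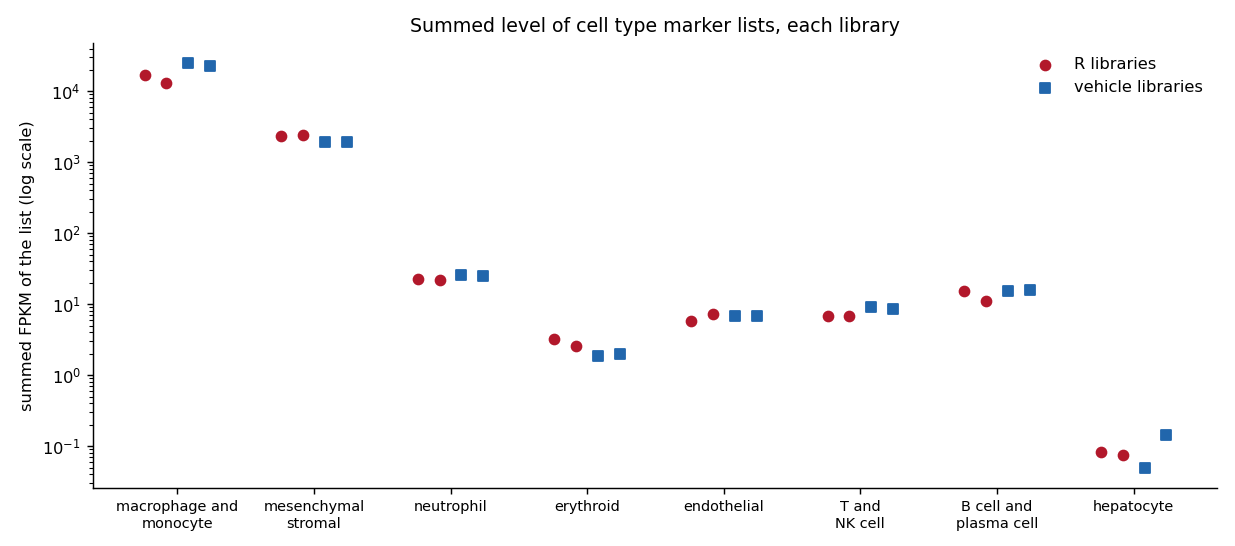
Summed FPKM of each cell type marker list (log axis) in the 2 R libraries (circles) and the 2 vehicle libraries (squares). Macrophage and monocyte markers stand highest in every library, at 13071 to 17052 FPKM in R and 22393 to 25063 FPKM in vehicle, and hepatocyte markers lowest.

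Saa3 and Cp fell in R and no gene of the 10 rose. The comparison between R and vehicle was made with limma on log2(FPKM + 1), a scale that understates the change of low genes, over the 12176 genes whose mean reached 1 FPKM. A gene was called when its p, adjusted by the Benjamini-Hochberg (BH) method over all of them, was under 0.05. Of the 10 genes 8 were tested, and Lcn2 and Lrg1 were below the filter. The 2 calls were among 8 tested, where 1.72% of all tested genes were called, 1.37% as lower and 0.345% as higher in R. The values of R and vehicle did not overlap for 5 of the 8, lower in R, and for 1, higher in R. Of all tested genes 47.9% lay apart in this way, 25.2% as lower and 22.7% as higher. The median log2 fold change of the 8 was -0.41, beside 0.00 for all tested genes. By part it was -0.90 for the 3 tested acute phase genes and 0.10 for the 5 iron genes. After quantile normalization the median of the 8 was -0.14, beside 0.01 for all tested genes. Saa3, whose mean in R was under 1 FPKM, passed the filter through its level in vehicle. With genes of every level kept, limma called 0 of 24958, with 2767 at an unadjusted p under 0.05, and the calls of Saa3 and Cp were lost (BH-adjusted p = 0.164 for Saa3 and adjusted p = 0.165 for Cp).

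**Figure D2:**
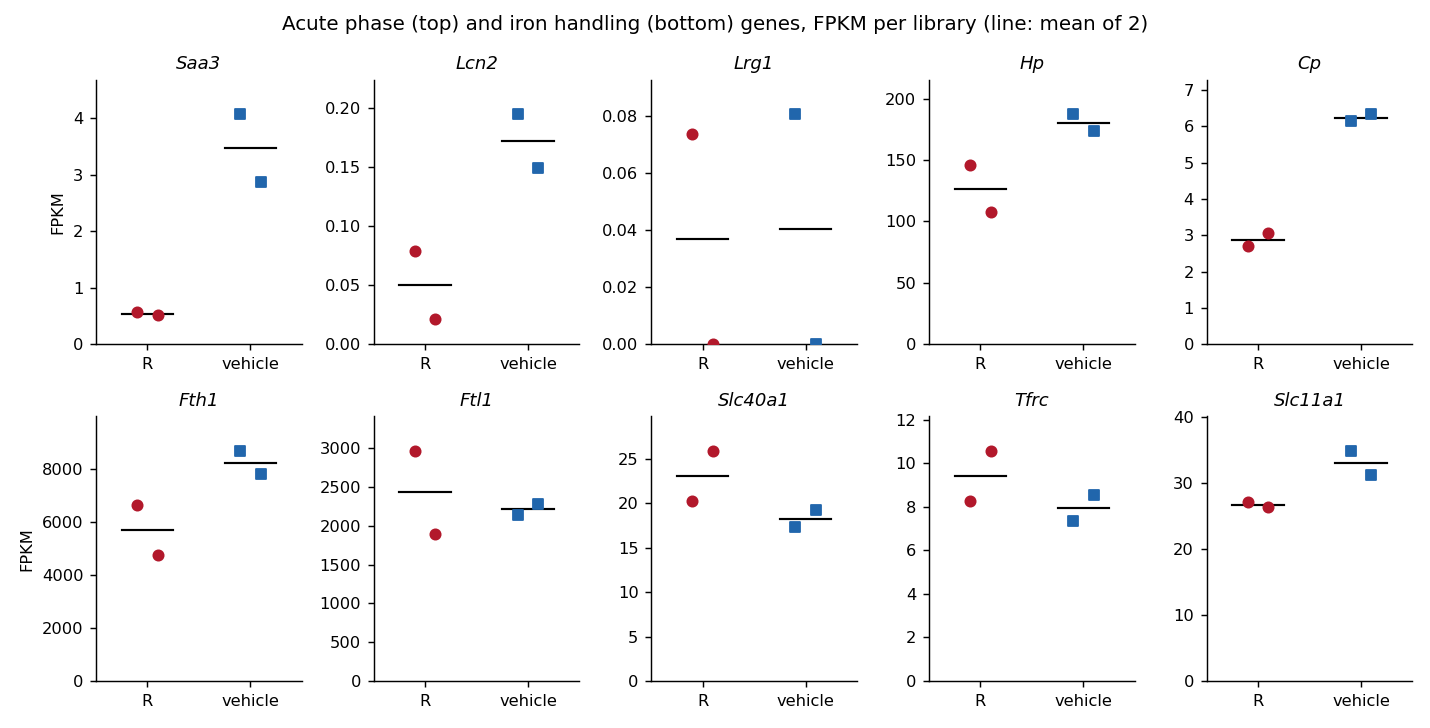
FPKM of the 10 genes in each library (linear axes from 0), R libraries as circles on the left and vehicle libraries as squares on the right, with the mean of each pair as a line. Saa3 lay at 0.509 to 0.577 FPKM in R and 2.87 to 4.07 FPKM in vehicle, and Cp at 2.70 to 3.06 FPKM in R and 6.15 to 6.33 FPKM in vehicle.

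Saa3 encodes serum amyloid A3, the member of the serum amyloid family made outside the liver in mice, among others by macrophages and adipose stroma. It was at 0.577 and 0.509 FPKM in R libraries, against 4.07 and 2.87 FPKM in vehicle libraries. Both R libraries lay far below both vehicle libraries, although vehicle replicate 1 stood above vehicle replicate 2 by more than the R libraries spanned. The mean was 0.543 ± 0.0478 FPKM over the R libraries and 3.47 ± 0.850 FPKM over the vehicle libraries (SD, n = 2 each), a 6.39-fold lower mean in R. The log2 fold change was -1.52 (SE 0.181; limma, BH-adjusted p = 0.0196). These values rest on 29 and 24 reads in R and on 187 and 134 reads in vehicle. With a pseudocount of 0.1 FPKM the log2 fold change was -2.45, and in limma voom on the recovered reads it was -2.63. Saa3 (ENSMUSG00000040026) spans positions 46711998 to 46715700 on the minus strand of chromosome 7 in GRCm38.

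The liver-type family members were nearly silent. Saa1 had no read in any library, which allows at most 3 reads or 0.0627 to 0.0686 FPKM, and Saa2 had 1 read in vehicle replicate 1 and 0 reads in the other libraries. Of the 50-base windows in Saa3 transcripts, 3.57% also occur in transcripts of other genes. These are 245 genes, and those sharing most were Pik3c2a, Ndufaf7 and Otud7b, which are outside the serum amyloid family.

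The promoter of Saa3 is shown because this gene had the most negative log2 fold change of the 8. The RefSeq window (GRCm38.p6, chr7:46715627-46715926, minus strand) runs 5′ to 3′ from 250 bases before the start of transcription to 50 after it. Capitals mark matches, on either strand, to the C/EBP motif TTNNGNAA and to the interferon-stimulated response element, spelled GAAA, any 2 bases and GAAA:
Saa3: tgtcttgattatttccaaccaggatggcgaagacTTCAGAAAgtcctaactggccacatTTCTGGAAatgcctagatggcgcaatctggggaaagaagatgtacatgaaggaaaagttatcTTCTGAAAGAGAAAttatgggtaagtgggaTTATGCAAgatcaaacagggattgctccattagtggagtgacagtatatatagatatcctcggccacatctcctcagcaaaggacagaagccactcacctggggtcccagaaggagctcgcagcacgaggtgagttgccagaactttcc
The window holds 4 C/EBP matches and 1 interferon-stimulated response element, GAAAGAGAAA, which overlaps the C/EBP match TTCTGAAA. It also holds 1 match to the antioxidant response element TGANNNNGC, not in capitals, which overlaps the C/EBP match TTATGCAA. Of 32851 RefSeq promoters of this length, 40.7% hold the C/EBP motif, 41.3% the antioxidant response element and 3.44% the interferon-stimulated response element. No match to the STAT motif TTCNNNGAA or to the NF-kB motif, spelled GGG, any 5 bases and CC, was found in this window, motifs that 8.3% and 50.8% of promoters hold. A match is a run of letters and not a binding site.

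Cp encodes ceruloplasmin, a copper protein that oxidises iron so that transferrin can bind it on leaving the cell. It was at 2.70 and 3.06 FPKM in R libraries, against 6.15 and 6.33 FPKM in vehicle libraries. The replicates of each group lay close together and the groups did not overlap. The mean was 2.88 ± 0.258 FPKM over the R libraries and 6.24 ± 0.132 FPKM over the vehicle libraries (SD, n = 2 each), a 2.17-fold lower mean in R. The log2 fold change was -0.90 (SE 0.125; limma, BH-adjusted p = 0.0335), on 498 and 530 reads in R and 1037 and 1087 reads in vehicle. With each library rescaled to TPM, a step after which all tested genes had a median of 0.13, the log2 fold change of Cp was -0.91 and was not called (limma, BH-adjusted p = 0.0976). Cp (ENSMUSG00000003617) spans positions 19957054 to 20009145 on the plus strand of chromosome 3 in GRCm38.

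The promoter of Cp is shown as the window of the other called gene. RefSeq gives 2 starts, and the downstream window (GRCm38.p6, chr3:19956999-19957298, plus strand) has matches to the C/EBP motif TTNNGNAA and the NF-kB motif, marked in capitals on either strand:
Cp: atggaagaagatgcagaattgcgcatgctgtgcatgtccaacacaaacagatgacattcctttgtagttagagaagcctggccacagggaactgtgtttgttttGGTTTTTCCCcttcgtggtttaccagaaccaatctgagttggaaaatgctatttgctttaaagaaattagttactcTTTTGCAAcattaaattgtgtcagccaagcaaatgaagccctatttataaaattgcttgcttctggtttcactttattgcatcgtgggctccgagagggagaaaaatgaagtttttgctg
Neither the interferon-stimulated response element nor the STAT motif was found in this window. Over the 8 of the 10 genes with a RefSeq promoter, 11 windows in all, the STAT motif had no match and Saa3 alone held the interferon-stimulated response element. The NF-kB motif was in 8 of these windows and the C/EBP motif in 8, motifs that 50.8% and 40.7% of all RefSeq promoters hold. The windows are not independent: those of Cp overlap, and those of Tfrc overlap and share NF-kB matches. The upstream window of Cp, not shown, held a C/EBP match and no NF-kB match.

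Hp encodes haptoglobin, which binds free haemoglobin for uptake by macrophages. It was the acute phase gene with the highest level, at 146 and 107 FPKM in R libraries and 187 and 173 FPKM in vehicle libraries. Both R libraries lay below both vehicle libraries, with R replicate 2 lowest. The log2 fold change of Hp was -0.52 (SE 0.189), with limma's 95% interval from -0.99 to -0.06, and the gene was not called (limma, BH-adjusted p = 0.26). Without R replicate 1 the value for Hp was -0.74 and without R replicate 2 it was -0.30, each from a fit with 1 R library.

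Lcn2 encodes lipocalin 2, which binds bacterial siderophores and so keeps iron from bacteria, and Lrg1 a leucine-rich glycoprotein of blood plasma. Both were close to the limit of detection. Lcn2 was at 0.079 and 0.0211 FPKM in R libraries, from 4 and 1 reads, and at 0.195 and 0.149 FPKM in vehicle libraries, from 9 and 7 reads. The groups did not overlap, but counts this low carry a large counting error and the gene was not tested. Lrg1 had 2 and 0 reads in R libraries and 2 and 0 reads in vehicle libraries. A count of 0 allows at most 3 reads, 0.118 FPKM for Lrg1 in R replicate 2 and 0.119 FPKM in vehicle replicate 2, so a difference in Lrg1 was not detectable at this depth. Lcn2 and Lrg1 are abundant in neutrophils, whose markers summed to 22.7 and 21.9 FPKM in R libraries and to 25.5 and 24.7 FPKM in vehicle libraries, with 7 of 15 at 0. Nearly all of these sums came from Csf3r and Mmp9, which changed in opposite directions. Csf3r, the receptor for granulocyte colony-stimulating factor, was at 11.2 and 10.6 FPKM in R libraries and at 19.7 and 18.4 FPKM in vehicle libraries, and fell (log2 fold change -0.75; limma, BH-adjusted p = 0.0479). Mmp9, a matrix protease, was at 9.11 and 9.51 FPKM in R libraries and at 3.33 and 3.94 FPKM in vehicle libraries, and rose (log2 fold change 1.16; limma, BH-adjusted p = 0.0155). Csf3r and Mmp9 were singled out after their values were seen.

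Most macrophage markers were lower in the same R libraries as Saa3, Cp and Hp, with a median log2 fold change of -0.59 over 25 tested genes. Single markers ran from -2.34 for Cd5l to 0.23 for Cx3cr1, and 19 of the 25 were not called. The part of the macrophage markers in these differences was not tested. Lyz2, Cd5l and Cx3cr1 were singled out after their values were seen. In bulk RNA, fewer cells of a type and less RNA per cell cannot be told apart.

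None of the 5 iron storage and transport genes was called in either direction. In limma 0 of them had an unadjusted p under 0.05, and limma voom on recovered reads also called 0. The log2 fold changes ran from -0.55 for Fth1 to 0.31 for Slc40a1. R was lower for the heavy chain of ferritin and for Slc11a1, and higher for ferroportin, with no overlap between the groups in each case but without passing the test.

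**Figure D3:**
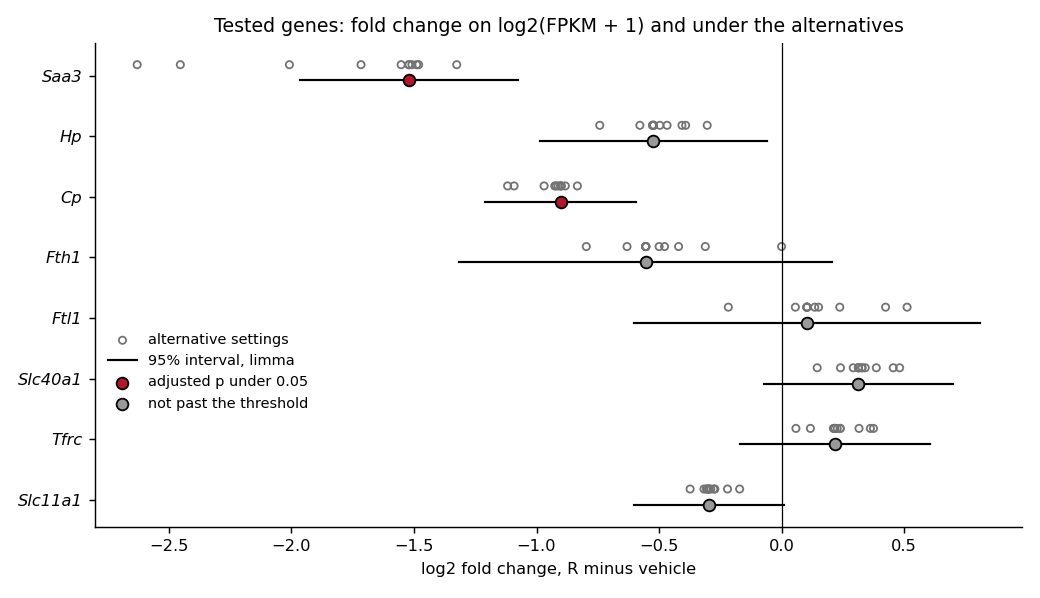
Log2 fold change, R minus vehicle, of the 8 tested genes on log2(FPKM + 1), with limma's 95% interval (filled circles and lines), and under the alternative settings (open circles). Saa3 and Cp, in red, lie at -1.52 and -0.90, with every alternative value also below 0, and Ftl1 has values on both sides of 0.

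The 4 genes whose mRNAs are known to be bound by iron regulatory proteins are shown by their iron-responsive elements, since these mark which transcripts share that control. The elements were found in GENCODE M21 transcripts as a C, 5 bases, CAGTGN and 5 further bases. At least 4 of these 5 had to pair with the first 5, with G-U pairs allowed. In the elements shown, the 6 bases of the loop are in capitals. They lie at chr19:9982732-9982760 for Fth1 (plus strand), chr7:45459779-45459807 for Ftl1 (minus strand) and chr1:45925465-45925493 for Slc40a1 (minus strand), each in the 5′ untranslated region. Tfrc has 4 in its 3′ untranslated region, of which the first is at chr16:32631219-32631247 and the last at chr16:32631710-32631738 (plus strand, GRCm38):
Fth1: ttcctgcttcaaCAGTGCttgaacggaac
Ftl1: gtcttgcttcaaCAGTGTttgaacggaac
Slc40a1: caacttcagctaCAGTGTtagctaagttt
Tfrc first: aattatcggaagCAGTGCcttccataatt
Tfrc last: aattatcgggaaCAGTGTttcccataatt
All 5 stem pairs formed in each of these elements. The same search, which also accepts 4 pairs, found an element in the 5′ untranslated region of 0.937% and in the 3′ untranslated region of 3.99% of 21877 protein-coding genes. The 3 genes with a 5′ element had log2 fold changes of -0.55, 0.10 and 0.31 for Fth1, Ftl1 and Slc40a1. Tfrc, with its 3′ elements, was at 0.22. None of these 4 genes was called. Control through a 5′ element acts on translation, which mRNA levels do not measure, so it was not tested here.

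Fth1 encodes the ferritin heavy chain, which oxidises iron on entry into the ferritin shell. It held the second place among all genes by mean level. This place depends on the gene length in its FPKM, which gave whole reads at 866 bases and not at the annotated 3469. It was at 6631 and 4735 FPKM in R libraries and at 8677 and 7802 FPKM in vehicle libraries. Both R libraries were below both vehicle libraries, and R replicate 2 was the lowest of the 4. The mean was 5683 ± 1340 FPKM over the R libraries and 8239 ± 618 FPKM over the vehicle libraries (SD, n = 2 each). The log2 fold change was -0.55 (SE 0.309), with a 95% interval from -1.32 to 0.21, and was not called (limma, BH-adjusted p = 0.455). Quantile normalization, which sets genes of the same rank equal between libraries, gave 0.00 for Fth1, which had the same rank in all 4. Without R replicate 1 and without R replicate 2 the value was -0.80 and -0.31.

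Ftl1 encodes the ferritin light chain, which helps the iron core to form. It was at 2966 and 1900 FPKM in R libraries and at 2138 and 2283 FPKM in vehicle libraries. The R libraries lay on either side of both vehicle libraries, so the groups overlapped. The log2 fold change of Ftl1 was 0.10 (SE 0.287), with a 95% interval from -0.60 to 0.81 (limma, BH-adjusted p = 0.898). Its direction depended on the library: without R replicate 1 it was -0.22 and without R replicate 2 it was 0.42. After quantile normalization the log2 fold change of Ftl1 was 0.51, just short of the threshold (limma, BH-adjusted p = 0.0504).

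The level of Ftl1 is uncertain because copies of the gene share its sequence. Of the 50-base windows in Ftl1 transcripts, 50.9% also occur in transcripts of other genes, among them Ftl1-ps1, which GENCODE M21 lists as protein coding despite its name, and the processed pseudogene Ftl2-ps. Ftl1-ps1 was at 77.5 and 45.1 FPKM in R libraries and at 44.9 and 43.9 FPKM in vehicle libraries. Ftl2-ps was at 5.35 and 2.50 FPKM in R libraries and at 1.23 and 0.303 FPKM in vehicle libraries, and neither copy was called (limma, BH-adjusted p = 0.509 for Ftl1-ps1 and adjusted p = 0.131 for Ftl2-ps). Both copies, like Ftl1, were higher in R replicate 1 than in R replicate 2. The share for Fth1 was 1.59%, counted over the 3654 windows of all its annotated transcripts. The FPKM of Fth1 rests on 866 bases, and the share within those was not counted.

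Set against each other within a library, the ferritin chains stood in a different ratio in each group. The ratio of Fth1 to Ftl1 in FPKM was 2.24 and 2.49 in R libraries and 4.06 and 3.42 in vehicle libraries. Both R libraries had a lower ratio than both vehicle libraries, and the ratio moved less between the R libraries than either gene did, though more between the vehicle libraries. On the log2(FPKM + 1) scale the difference of Fth1 minus Ftl1 was 1.24 ± 0.110 in R and 1.90 ± 0.175 in vehicle (SD, n = 2 each), a difference of -0.66. An exact permutation test (two-sided) gave p = 0.333, the smallest that 2 libraries against 2 allow. The difference was -0.66 on the TPM scale, -0.51 after quantile normalization and -0.64 with a gene length trend removed. After quantile normalization the log2 fold change was 0.00 for Fth1 and 0.51 for Ftl1. The size of the ratio itself depends on the gene lengths used in the FPKM, and reads from the shared windows of Ftl1 cannot be assigned to it with certainty. Together the ferritin chains made up 2.88 and 2.31% of the FPKM sum in R libraries and 3.13 and 3.02% in vehicle libraries. These shares depend on the gene lengths as well.

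**Figure D4:**
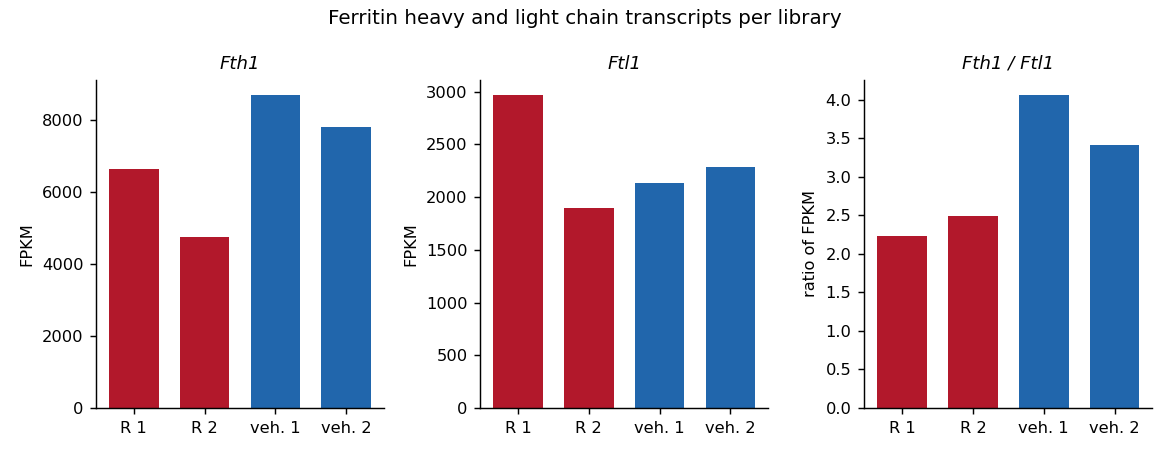
FPKM of the ferritin heavy chain gene Fth1 and light chain gene Ftl1, and the ratio of their FPKM, in each library (bars from 0; R red, vehicle blue). The ratio was 2.24 and 2.49 in the R libraries and 4.06 and 3.42 in the vehicle libraries, while the bars of Ftl1 overlap between the groups.

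Slc40a1 encodes ferroportin, the only known iron exporter of mammalian cells, and Tfrc the transferrin receptor, which takes up iron. Slc40a1 was at 20.3 and 25.9 FPKM in R libraries and at 17.3 and 19.3 FPKM in vehicle libraries. Its R values lay above its vehicle values, with a gap between R replicate 1 and vehicle replicate 2 smaller than the span of the R libraries. The log2 fold change of Slc40a1 was 0.31 (SE 0.156), with a 95% interval from -0.07 to 0.70 (limma, BH-adjusted p = 0.402). Tfrc was at 8.29 and 10.6 FPKM in R libraries and at 7.32 and 8.55 FPKM in vehicle libraries. These values overlapped between the groups, and the log2 fold change of Tfrc was 0.22 with a 95% interval from -0.17 to 0.60 (limma, BH-adjusted p = 0.573). For both genes replicate 2 stood above replicate 1 in each group.

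Slc11a1 encodes Nramp1, which pumps iron and manganese out of the phagosomes of macrophages. It was at 27.1 and 26.3 FPKM in R libraries and at 34.9 and 31.3 FPKM in vehicle libraries. The groups did not overlap and the R libraries lay close together. The log2 fold change of Slc11a1 was -0.30 (SE 0.124), with a 95% interval from -0.60 to 0.01, and was not called (limma, BH-adjusted p = 0.327). The markers of macrophages, the cells that mainly express this gene, had a median log2 fold change of -0.59 in the same libraries, and their part in the difference was not tested.

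The order of levels was the same by group mean in R and vehicle for the 4 highest genes: Fth1, Ftl1, Hp and Slc11a1. The place of Fth1 above Ftl1 depends on the gene lengths used in the FPKM. Slc40a1 and Tfrc followed in both groups, then Cp, Saa3, Lcn2 and Lrg1. Slc11a1 and Slc40a1 came close in R, at 26.7 ± 0.536 and 23.1 ± 3.96 FPKM (SD, n = 2), values that did not differ beyond their spread. Lcn2 and Lrg1 overlapped in R. In vehicle Slc11a1 and Slc40a1 were at 33.1 ± 2.54 and 18.3 ± 1.38 FPKM (SD, n = 2).

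Other acute phase genes were mostly silent or not called. Of 36 further acute phase proteins, 15 had no read in any library, among them Crp, Apcs, Saa1 and the hepcidin gene Hamp, and 7 were tested. In limma 0 of these 7 were called, 4 had an unadjusted p under 0.05, and limma voom on recovered reads called 0 of 6. Mt1, a metallothionein that binds zinc and copper, was at 132 and 83.0 FPKM in R libraries and at 197 and 190 FPKM in vehicle libraries. Its log2 fold change was -0.88 (SE 0.235; limma, BH-adjusted p = 0.154). Cd14, the lipopolysaccharide co-receptor, which is also in the macrophage list, was at 182 and 133 FPKM in R libraries and at 261 and 246 FPKM in vehicle libraries. Its log2 fold change was -0.70 (SE 0.193; limma, BH-adjusted p = 0.162).

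Among 21 cytokines, receptors and transcription factors that induce acute phase genes, 18 were tested, 2 fell and 0 rose (limma). In limma voom on recovered reads 3 of the 18 were called as lower in R: Osmr, Il1b and Stat3. Osmr, the receptor chain for oncostatin M, was at 2.70 and 3.27 FPKM in R libraries and at 6.85 and 7.78 FPKM in vehicle libraries. The gene fell in R, with a log2 fold change of -1.06 (SE 0.14; limma, BH-adjusted p = 0.0281). Il1b, which encodes interleukin 1 beta, was at 2.74 and 3.19 FPKM in R libraries and at 7.05 and 6.22 FPKM in vehicle libraries. The gene fell in R, with a log2 fold change of -0.95 (SE 0.135; limma, BH-adjusted p = 0.036), and was no longer called when vehicle replicate 1 was left out (limma, BH-adjusted p = 0.0707). Neither Osmr nor Il1b was called on the TPM scale (limma, BH-adjusted p = 0.0842 for Osmr and adjusted p = 0.0919 for Il1b).

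Stat3, the transcription factor of the interleukin 6 pathway, and Osm, which encodes oncostatin M, were not called with all libraries on log2(FPKM + 1). Stat3 was at 14.2 and 15.6 FPKM in R libraries and at 22.95 and 23.6 FPKM in vehicle libraries, with a log2 fold change of -0.61 (SE 0.12; limma, BH-adjusted p = 0.0794). Osm was at 11.95 and 10.1 FPKM in R libraries and at 17.3 and 17.8 FPKM in vehicle libraries, with a log2 fold change of -0.63 (SE 0.13; limma, BH-adjusted p = 0.0903). For both genes the replicates of a group differed less than the groups did. Of 12 alternative settings Stat3 was called in 5, among them voom (BH-adjusted p = 0.048), and Osm in 4. Both genes were called with the length trend removed and with a replicate block. Their remaining calls came from fits that hold 1 R library. The median log2 fold change of the 18 inducers was -0.06 and that of the 7 acute phase proteins -0.07, beside 0.00 for all tested genes. Over both lists 25 genes were tested and 2 called, a count that was 6 without R replicate 1, 7 without R replicate 2 and 1 without vehicle replicate 1. The share of all tested genes called was 1.72% with every library, 8.44% without R replicate 1, 7.16% without R replicate 2 and 2.33% without vehicle replicate 1, so calls became more frequent across all genes in the same fits.

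Other iron genes were called once. Of 53 tested genes in 4 lists of iron and haem handling, 1 rose and 0 fell (limma), a share of 1.89% beside 1.72% of all tested genes, which is no result about iron genes as a group. The gene that rose was Bmp6, a ligand that induces hepcidin in the liver and sets the body's iron balance. Bmp6 was at 3.24 and 2.95 FPKM in R libraries and at 0.581 and 0.772 FPKM in vehicle libraries. Both R values were several times both vehicle values, a 4.57-fold higher mean in R, and the log2 fold change was 1.29 (SE 0.15; limma, BH-adjusted p = 0.0181). Its mean in vehicle was under 1 FPKM, so Bmp6 passed the filter through its level in R. Hamp, the gene that Bmp6 acts on in liver, had no read in any library, which allows at most 3 reads or 0.379 to 0.415 FPKM. With genes of every level kept, Bmp6, Osmr and Il1b were not called (BH-adjusted p = 0.152 for Bmp6, adjusted p = 0.171 for Osmr and adjusted p = 0.181 for Il1b in limma). Over the 4 lists, 1 call was made with all libraries, against 6 without R replicate 1 and 5 without R replicate 2, shares of 11.3% and 9.43% beside 8.44% and 7.16% of all tested genes.

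Among the regulators and storage factors 1 of 12 tested genes was called. Hfe, which encodes a partner of the transferrin receptor mutated in human haemochromatosis, was at 21.3 and 18.8 FPKM in R libraries and at 30.204 and 30.004 FPKM in vehicle libraries. Nfe2l2 encodes NRF2, the oxidative stress factor that also drives ferritin genes, and was at 57.7 and 61.1 FPKM in R libraries and at 94.0 and 84.0 FPKM in vehicle libraries. Both were lower in each R library than in each vehicle library and neither was called, with log2 fold changes of -0.56 and -0.57 (limma, BH-adjusted p = 0.103 for Hfe and adjusted p = 0.117 for Nfe2l2).

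In the list of iron uptake and release, 0 of 10 tested genes were called by limma, 2 had an unadjusted p under 0.05, and limma voom on recovered reads called 0. Trf, which encodes transferrin, was at 5.04 and 2.80 FPKM in R libraries and at 6.78 and 7.39 FPKM in vehicle libraries. Slc22a17, a receptor for lipocalin 2, was at 4.62 and 4.03 FPKM in R libraries and at 2.67 and 2.76 FPKM in vehicle libraries. Trf was lower and Slc22a17 higher in both R libraries, with log2 fold changes of -0.75 and 0.52 (limma, BH-adjusted p = 0.197 for Trf and adjusted p = 0.137 for Slc22a17).

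In the haem list 0 of 17 tested genes were called by limma, 2 had an unadjusted p under 0.05, and limma voom on recovered reads called 0 of 16. Lrp1, the receptor for haem bound to haemopexin, was at 104 and 142 FPKM in R libraries and at 68.2 and 86.2 FPKM in vehicle libraries. Hmox2, the constitutive haem oxygenase, was at 37.2 and 31.3 FPKM in R libraries and at 45.9 and 46.8 FPKM in vehicle libraries. Lrp1 was higher and Hmox2 lower in both R libraries, with log2 fold changes of 0.66 and -0.43 (limma, BH-adjusted p = 0.204 for Lrp1 and adjusted p = 0.215 for Hmox2).

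In the mitochondrial list 0 of 14 tested genes were called by limma, 1 had an unadjusted p under 0.05, and limma voom on recovered reads called 0 of 13. Glrx5, a glutaredoxin of iron-sulphur cluster assembly, was at 24.5 and 16.3 FPKM in R libraries and at 13.6 and 12.8 FPKM in vehicle libraries. Both R libraries lay above both vehicle libraries, with a log2 fold change of 0.56 for Glrx5 (limma, BH-adjusted p = 0.256). The median log2 fold changes of the iron uptake, regulator, haem and mitochondrial lists were -0.02, -0.13, -0.09 and 0.01. After rescaling to TPM they were 0.10, -0.01, 0.04 and 0.14, beside 0.13 for all tested genes.

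**Figure D5:**
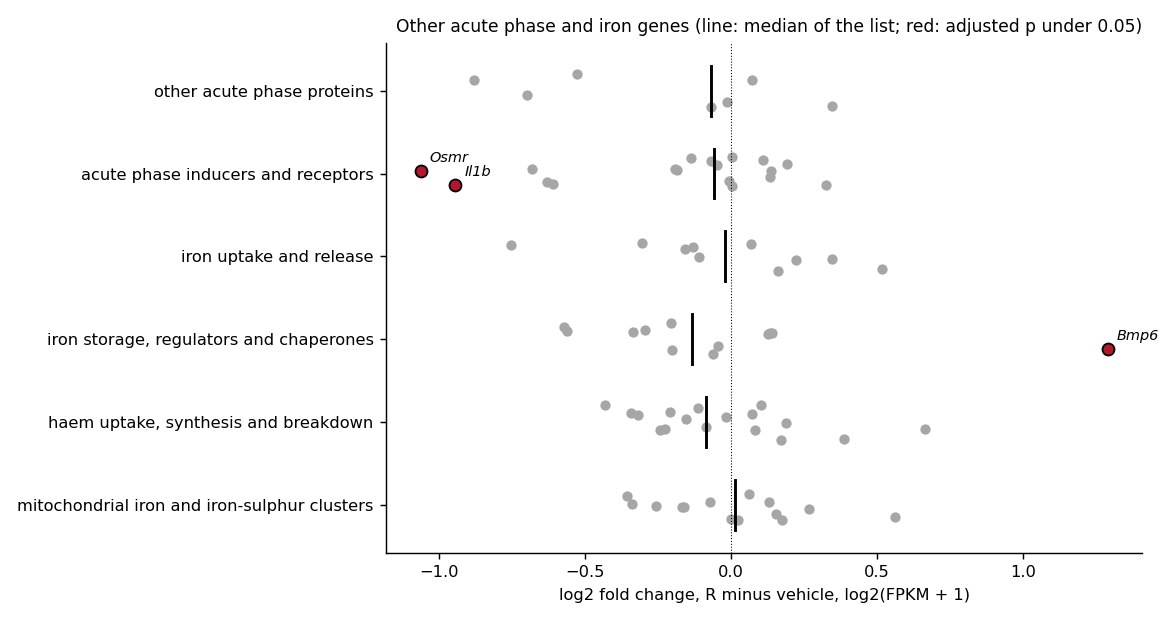
Log2 fold change, R minus vehicle, of the tested genes in 6 lists of other acute phase and iron genes, with each list's median as a line and called genes in red. Osmr and Il1b, at -1.06 and -0.95, and Bmp6, at 1.29, are the called genes, and the list medians lie between -0.13 and 0.01.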

How the data were processed

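Total RNA of 4 libraries, 2 per group, was analysed from a deposited table of FPKM values with 1 row per Ensembl gene, a unit taken per the file headers. GRCm38, mm10 and edgeR 3.18.1 are named per the submitters' processing notes with no role. For the aligner, counter and annotation the sources used here give nothing. The table's 10 empty columns were not used. GENCODE M21 (GRCm38) gave symbols, lengths and 1-based coordinates for 54495 genes. FPKM multiplied by length gave whole reads (tolerance 0.02) for 96.3 to 96.4% of values above 0. Fth1 did so at a length of 866 bases, not at its annotated 3469, and its reads use 866. Intervals and limits from reads cover counting error only.

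R and vehicle were compared in limma 3.58.1 (R 4.3.3) on log2(FPKM + 1), with a variance trend, over genes whose mean reached 1 FPKM, with BH adjustment. The fit had 2 residual degrees of freedom. The alternatives were other pseudocounts, filters and scalings, voom on recovered reads, removal of a gene length trend, a replicate block and each library left out. Only the model of the main fit was tested on simulated data. Those data had no gene length trend and no link between libraries of the same number. Named genes were the 10 members and, of each wider list, those called and the 2 uncalled with the smallest p. One gene that this rule names is not reported here. Members and lists were chosen with earlier results of these data known. Promoter windows are from RefSeq.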

Additional observations from a re-analysis of the deposited data

How the results depend on the processing

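The 42 genes higher and 167 lower in R, 209 in all, became 58 and 124 on the TPM scale, with 68.1% lower in place of 79.9%. The count was 318 with voom, 573 with the length trend removed (223 higher, 350 lower, 61.1% lower), and 283 to 1029 with a library left out. Without a filter limma called 0 of 24958 genes, with 2767 at an unadjusted p under 0.05, so the counts for the 10 genes, the other acute phase genes and the other iron genes were 0, 0 and 0. Saa3 and Cp then had adjusted p = 0.164 and adjusted p = 0.165 in limma. A minimum mean of 5 FPKM removed Saa3, Cp, Il1b and Bmp6 from the test and left 0, 1 and 0 calls. On the TPM scale 1 of the 10 genes, Saa3, and 0 of the other acute phase genes were called. With the length trend removed, 7 of 25 tested other acute phase genes (28%) and 4 of 53 other iron genes (7.55%) were called, beside 4.71% of all tested genes. With a library left out the 10 genes gave 2 to 3 calls, the acute phase lists 1 to 7 and the iron lists 1 to 6. Saa3 and Cp were called without each library in turn. Ftl1 turned to -0.22 without R replicate 1, and was at 0.42 without R replicate 2 and at 0.51 after quantile normalization. The ferritin difference kept its sign, from -0.66 to -0.51. The single genes named kept direction and side of the threshold in 223 comparisons with an alternative, lost a call in 9 and gained one in 36. The cause of these shifts was not tested.

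Libraries of the same number share only a number in the labels. Their deviations correlated at 0.353 across genes. A fit with the replicate number as a block called 1900 genes (891 higher, 1009 lower), 15.6% of those tested. Among them were 3 of the 10 genes (Saa3, Cp and Hp), or 37.5% of the 8 tested. It also called 8 of 25 tested other acute phase genes (32%) and 8 of 53 tested other iron genes (15.1%). The share of iron genes was near that of all genes. R replicate 2 was high in long genes: the correlation of its deviations with log2 length was 0.319, against -0.257 in R replicate 1, -0.168 in vehicle replicate 1 and 0.0896 in vehicle replicate 2. Depth limited Lcn2 and Lrg1.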
